A study of Caenorhabditis elegans with 2 samples.

Results

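The microRNA genes of *Caenorhabditis elegans* outside the mir-51 family were examined for binding of HLH-6, a transcription factor of the basic helix-loop-helix (bHLH) class. The set holds every gene annotated as a miRNA in Ensembl release 115 (assembly WBcel235) except mir-51 to mir-56, which makes 255 of 46890 nuclear genes. Binding was measured by anti-GFP chromatin immunoprecipitation and sequencing (ChIP-seq) in whole hermaphrodite late embryos, 3.5 h after synchronization by egg bleaching. The labels give a single group, 2 biological replicates of strain RW10702, a transgenic line whose HLH-6 carries a C-terminal GFP and FLAG tag. Both replicates come from that 1 line, the antibody field of the labels names hlh-6 while their description names anti-GFP, and no source used here gives the promoter or copy number of the transgene. With 1 group there is no comparison between conditions, so the values below are set beside those of the other annotated genes.

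A microRNA is cut from a hairpin in a longer primary transcript, and the bases at its 5′ end called the seed pair with target messenger RNAs, which are then repressed. Some hairpins lie in transcripts of their own, several can share 1 transcript as a cluster, and others lie in introns of coding genes and can be made either with the host transcript or from a separate promoter inside the gene. HLH-6 has been studied mainly in the pharyngeal glands, and bHLH proteins bind the E-box, CANNTG. The annotated start of these genes is in general the 5′ end of the hairpin and not a transcription start, so a promoter window measured from it is an approximation.

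A gene was called when its promoter window, from 1000 bp upstream to 200 bp downstream of the annotated start, held the summit of a region of the authors' optimal list. The authors derived that list of 912 regions from the pooled list and the lists of both replicates, and its regions are the 912 strongest of the pooled list by signal value. Each carries the authors' signal value, a score of unstated scale that is used below only to rank and describe regions within a list. The DNA at the summits is shown for 5 called genes because the sequence is what the factor could contact. At mir-62, mir-55b, mir-87 and mir-90 the strongest summit of a replicate lies outside the stretch shown. Each line gives 101 bases centred on the strongest optimal summit, 5′ to 3′ on the strand of the hairpin, read from the RefSeq genome of WBcel235 (build ce11), with any E-box in capitals. They lie, in the order printed, at chrX:12692007-12692107 (plus strand), chrIV:3233024-3233124 (plus), chrX:13144404-13144504 (plus), chrV:12038939-12039039 (minus) and chrIII:8874190-8874290 (minus).
mir-62: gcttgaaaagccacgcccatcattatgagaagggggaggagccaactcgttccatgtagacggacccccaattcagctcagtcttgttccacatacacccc
mir-58.1: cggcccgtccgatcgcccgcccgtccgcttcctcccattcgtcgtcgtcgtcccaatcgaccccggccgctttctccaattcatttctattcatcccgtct
mir-55b: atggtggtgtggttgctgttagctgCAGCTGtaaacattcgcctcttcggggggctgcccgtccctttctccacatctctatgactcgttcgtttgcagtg
mir-87: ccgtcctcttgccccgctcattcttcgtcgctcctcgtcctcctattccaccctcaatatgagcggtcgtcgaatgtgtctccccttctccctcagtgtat
mir-90: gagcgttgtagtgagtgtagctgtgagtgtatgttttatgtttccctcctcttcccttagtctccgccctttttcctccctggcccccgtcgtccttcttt

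The mature microRNAs of called loci show which of them are related. Each is read from the same genome at the mature coordinates of the Ensembl annotation, with the seed, bases 2 to 8, in capitals. The hairpins lie at chrX:12692608-12692665 (mir-62), chrIII:8873987-8874084 (mir-90), chrIV:3233254-3233350 (mir-58.1), chrIV:11871738-11871833 (mir-124), chrV:12038688-12038781 (mir-87) and chrII:5902254-5902347 (lin-4, whose region ranked just below the optimal list). The 3′ arm is given for all but lin-4, for which it is the 5′ arm.
mir-62: uGAUAUGUaaucuagcuuacag
mir-90: uGAUAUGUuguuugaaugccccu
mir-58.1: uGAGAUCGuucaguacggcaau
mir-124: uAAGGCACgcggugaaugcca
mir-87: gUGAGCAAaguuucaggugugc
lin-4: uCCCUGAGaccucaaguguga
mir-62 and mir-90, on different chromosomes, share the seed GAUAUGU, and the other 4 seeds are distinct.

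In all, 8 of the 255 microRNA genes were called, a share of 3.14% (exact 95% interval 1.36 to 6.09, for the counting of genes only). The share was 2.18% of the 19973 protein-coding genes (435 genes) and 2.38% of all 46635 other annotated genes outside the set, both inside that interval, so the count of called microRNA genes lay near the background. Of the 6 genes mir-51 to mir-56, 5 were called (83.3%), with signal values of 528 at mir-51, 271 at mir-52 and 128 at the summit shared by mir-54, mir-55 and mir-56. The signal values of the 8 called genes outside that family ran from 88.1 to 135, with a median of 103, and the median over called coding genes was 107. The strongest, at mir-2, ranked 222 of the 912 regions.

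The 8 called genes were mir-2, mir-62, mir-58.1, mir-55b, mir-5546, mir-124, mir-87 and mir-90, in falling order of signal value. They shared a host position that the rule did not use. Each of the 8 hairpins lay in an intron of a coding gene on the same strand as that gene. Each strongest summit also lay upstream of its hairpin, by 156 to 551 bp, but most of the window lies upstream by the rule. Of the 255 genes, 74 lay inside a coding gene on its strand, 29 inside a coding gene on the opposite strand and 152 outside coding genes. All 8 calls fell among the 74 (10.8%, exact 95% interval 4.78 to 20.2), with 0 of 29 (up to 11.9%) and 0 of 152 (up to 2.40%) in the other classes. With a window of 2000 bp upstream 2 further genes were called, neither on the strand of a host gene: mir-235, outside coding genes, and mir-8190, opposite to hmr-1. By summit rather than hairpin, the strongest summit of each called gene also lay in an intron, except at mir-5546, where it lay in an exon of Y71F9AL.25. Among all 912 optimal summits, 277 lay in introns (30.4%). That share is not a like comparison, because the called summits were picked for lying near hairpins that are themselves intronic. Of the hairpins inside coding genes on either strand, 95 lay in introns and 8 in exons.

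**Figure D1:**
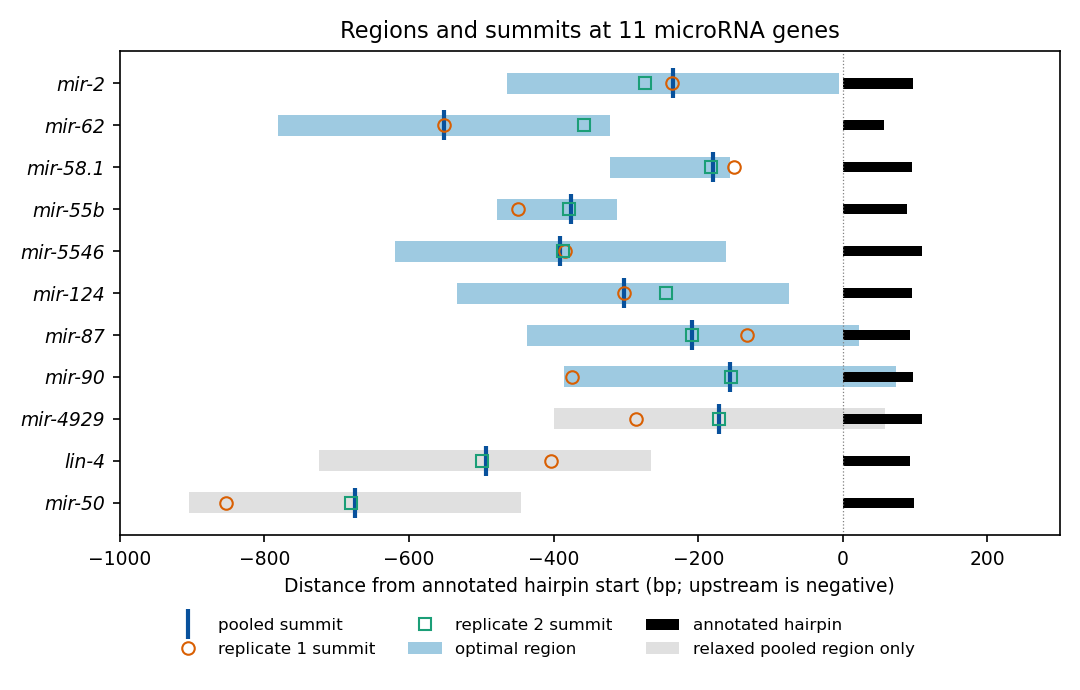
Regions and summits at 11 microRNA genes, by distance from the annotated hairpin start in bp, oriented so that upstream lies to the left. Blue bars are optimal regions of the 8 called genes, grey bars relaxed pooled regions of 3 genes outside the optimal list, black bars hairpins, ticks pooled summits, and open circles and squares the summits of replicates 1 and 2. The pooled summits drawn, the strongest at each gene, lie upstream of the hairpin, where most of the window lies. The replicate summits of a called gene are 3 to 220 bp apart.

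mir-2 (WBGene00003261, I:9372768-9372865, minus strand), a relative of the insect mir-2 family, lay in an intron of ppfr-1, which encodes a regulatory subunit of a protein phosphatase. Its region had a signal value of 135 in the optimal list, 65.3 in replicate 1 (rank 261 of 30000) and 71.0 in replicate 2 (rank 226). Both replicates ranked it high, and their summits lay 37 bp apart. The summit was 235 bp upstream of the hairpin and 14025 bp from the nearest coding transcription start site (TSS), that of dyf-5.

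mir-62 (WBGene00003290, X:12692608-12692665, plus strand) is a mirtron, a hairpin released by splicing of its host intron, here in the glucuronosyltransferase gene ugt-50. Its signal value was 124 in the optimal list, 63.0 in replicate 1 (rank 298) and 62.6 in replicate 2 (rank 316). The replicates gave nearly the same value, but their strongest summits were 193 bp apart. The pooled summit lay 551 bp upstream of the hairpin and 251 bp upstream of a TSS of ugt-50, so it also counts for that coding gene.

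mir-58.1 (WBGene00003286, IV:3233254-3233350, plus strand) is a member of the bantam-like family, which is abundant in worms. The signal value was 121 in the optimal list, 76.2 in replicate 1 (rank 178) and 45.6 in replicate 2 (rank 1038), so replicate 1 was the high one. It was the only called gene with 2 optimal summits in its window. The second had a signal value of 88.5 (rank 803) and lay 31 bp downstream of the hairpin start. The host is Y67D8A.2, whose nearest TSS was 3777 bp from the stronger summit.

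mir-55b (WBGene00303113, X:13144830-13144919, plus strand) is annotated on the strand opposite to mir-55 and overlaps it, and it stays in the set because its name is not one of the 6 left out. Its signal value was 110 in the optimal list, 59.4 in replicate 1 (rank 363) and 57.5 in replicate 2 (rank 418), with both replicates alike. Its summit, 376 bp upstream of the hairpin in an intron of F09A5.3, is a different one from the summit of mir-54, mir-55 and mir-56. Without mir-55b, 7 genes were called.

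mir-5546 (WBGene00219219, I:2888448-2888557, minus strand) lay in an intron of arx-1, which encodes a subunit of the actin-nucleating Arp2/3 complex. Its signal value was 95.9 in the optimal list, 35.1 in replicate 1 (rank 2386) and 58.9 in replicate 2 (rank 388), so replicate 2 was the high one. The summits of both replicates lay only 3 bp apart. The pooled summit was in an exon of another coding gene, Y71F9AL.25, 48 bp from its TSS, and 241 bp from the snoRNA gene Y71F9AL.24.

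mir-124 (WBGene00003319, IV:11871738-11871833, plus strand) is a neuronal microRNA conserved in animals, expressed in the worm mainly in ciliated sensory neurons. Signal values were 95.1 in the optimal list, 63.5 in replicate 1 (rank 291) and 31.8 in replicate 2 (rank 3936), so replicate 1 was the high one and the values differed more than at any other called gene. The summit lay 303 bp upstream of the hairpin, in an intron of the cation channel gene trpa-1 and inside the ncRNA gene C29E6.13, and 6339 bp from the nearest coding TSS.

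mir-87 (WBGene00003315, V:12038688-12038781, minus strand) lay in an intron of kup-1. Its signal value was 93.2 in the optimal list, 41.8 in replicate 1 (rank 1254) and 57.3 in replicate 2 (rank 427). Replicate 2 was the higher, and the summit, 208 bp upstream of the hairpin and 1884 bp from a TSS of kup-1, also lay inside the ncRNA gene F10C2.11.

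mir-90 (WBGene00003318, III:8873987-8874084, minus strand) lay in an intron of K01F9.2 and was the weakest call. Signal values were 88.1 in the optimal list, 44.4 in replicate 1 (rank 983) and 62.0 in replicate 2 (rank 332), so replicate 2 was the high one. The replicate summits lay 220 bp apart, the widest gap among the 8, and the pooled summit was 156 bp upstream of the hairpin and 2888 bp from a TSS of K01F9.2.

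Of the 8 summits, 6 lay outside the promoter window of every coding gene, the exceptions being those at mir-62 and mir-5546. None was within 200 bp of a gene for a tRNA, snoRNA or snRNA, where 223 of all 912 optimal summits lay (24.5%). The summit at mir-5546 came closest, 241 bp from a snoRNA gene, just past that limit.

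**Figure D2:**
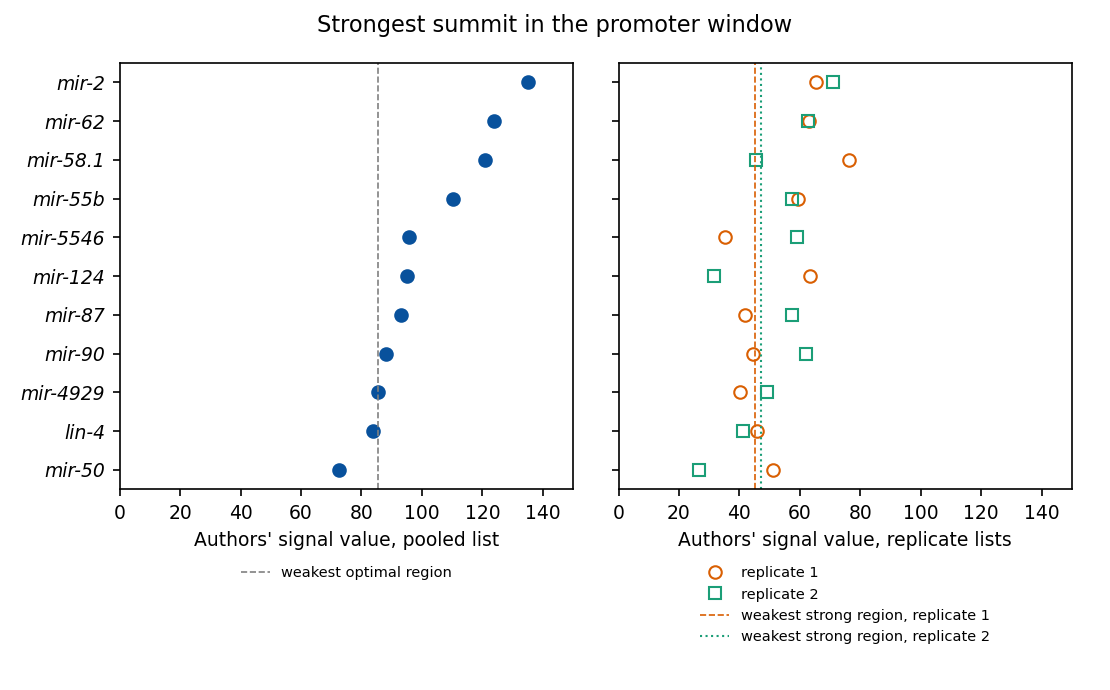
The authors' signal value at the strongest summit in the window of the 8 called genes and of mir-4929, lin-4 and mir-50, in the pooled list (left) and in the lists of replicates 1 and 2 (right). Dashed and dotted lines mark the weakest optimal region (85.6) and the weakest among the 912 strongest regions in replicate 1 (45.3) and in replicate 2 (47.0). mir-2, mir-62 and mir-55b lie right of both replicate lines, and the other called genes right of only 1.

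Each replicate was also taken alone, through its 912 strongest regions, as many as the optimal list holds. In replicate 1, 7 microRNA genes had such a summit (2.75%, against 2.06% of coding genes), and in replicate 2 also 7 (2.75%, against 2.08%). Only mir-2, mir-62 and mir-55b had one in both. mir-58.1 and mir-124 had one in replicate 1 alone, mir-5546, mir-87 and mir-90 in replicate 2 alone. Thus 5 of the 8 calls had a strong region in 1 replicate only. The spread between replicates cannot be turned into an error here, because the lists carry no read counts and the score has no stated scale.

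Another 3 genes, not called, had a strong region in 1 replicate, and all 3 lay in an intron of a coding gene on the same strand. lin-4, the founding microRNA, which times early larval fates through lin-14, had 83.8 in the pooled list (rank 978, just past the 912), 45.8 in replicate 1 (rank 882) and 41.3 in replicate 2 (rank 1512). Its replicate values were close, its summit lay 494 bp upstream of the hairpin within the host gene F59G1.4, and no coding promoter window held it. mir-4929 had 85.4 in the pooled list (rank 925), 40.1 in replicate 1 and 49.2 in replicate 2, with a summit 10 bp from the TSS of its host E01G4.3. mir-50, in the talin gene tln-1, had 72.6 in the pooled list (rank 1655), 51.1 in replicate 1 (rank 595) and 26.7 in replicate 2 (rank 6801), so replicate 1 was the high one. The optimal list ended at a signal value of 85.6, between the 88.1 of mir-90, the weakest called gene, and the 85.4 of mir-4929, the strongest one left out.

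mir-50 belongs with mir-62 and mir-90 by its seed, the one printed above for those genes. All 3 members of that seed group were thus either called or strong in 1 replicate, and all 3 are intronic on the host's strand. Among all 255 genes, 11 were called or strong in a replicate. No seed group outside those of this paragraph held a called gene, and nothing is drawn from a group of 3 genes. The called gene mir-58.1, listed below as bantam-like, is in no seed group. Its seed GAGAUCG differs at the last base from the GAGAUCA of mir-80, mir-81 and mir-82. The mir-2 seed group had 1 called gene of 4 (mir-2), with regions in the relaxed lists described next at mir-43, mir-250 and mir-797. The mir-87 group had 1 called gene of 3 (mir-87), with weaker pooled regions at mir-233 (51.6) and mir-356.1 (22.8). The members of these seed groups lie at separate loci and share no summit with each other. Members of other groups can share a summit, as mir-239.1 and mir-239.2 did (59.1 in the pooled list).

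The authors also deposited lists of 30000 regions each, for the pooled reads and for each replicate, which were made as input for the comparison of replicates and reach down into background. A summit in these relaxed lists is not a call. By this looser measure 115 microRNA genes had a pooled summit in the window (45.1%, against 32.4% of coding genes), 115 had one in replicate 1 (45.1%, against 32.9%) and 121 in replicate 2 (47.5%, against 31.6%). The microRNA share was above the coding share in all 3 lists, but the pooled list was made from both replicates and is not separate from theirs. The same 85 genes had one in every list, and 107 had none in any. Where genes within 2000 bp on 1 strand were counted once, by the first of each cluster, the pooled count was 91 of 219 (41.6%). The strongest pooled signal value in the window had a median of 43.6 over the 115 microRNA genes and of 37.4 over the 6471 coding genes with one. In that median each clustered gene counts separately, and the 115 genes hold 95 distinct summits.

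The relaxed summits were denser just upstream of the hairpins than farther away. With 1 gene per cluster, there were 0.719 pooled summits per kb per gene in the 400 bp upstream of the start and 0.333 per kb from 3000 to 1000 bp upstream, a ratio of 2.16, against 0.388 and 0.292 per kb at coding genes, a ratio of 1.33. In replicate 1 alone the ratio was 1.82 at microRNA genes and 1.33 at coding genes, and in replicate 2 alone 1.71 and 1.24. The ratio depended on where the gene lies. For the 69 unclustered or first genes inside a coding gene on its strand it was 3.37 (2.84 in replicate 1, 2.86 in replicate 2), for the 128 outside coding genes 1.65 (1.40 and 1.20), and for the 22 on the opposite strand 1.33 (1.47 and 1.25), which rests on 4 summits near the start. Of the optimal summits, 7 lay in those 400 bp, all at genes of the same-strand class. The pooled list holds the optimal regions, so these 7 are among the 31 pooled summits near the start behind the 3.37. The ratio without them was not computed.

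**Figure D3:**
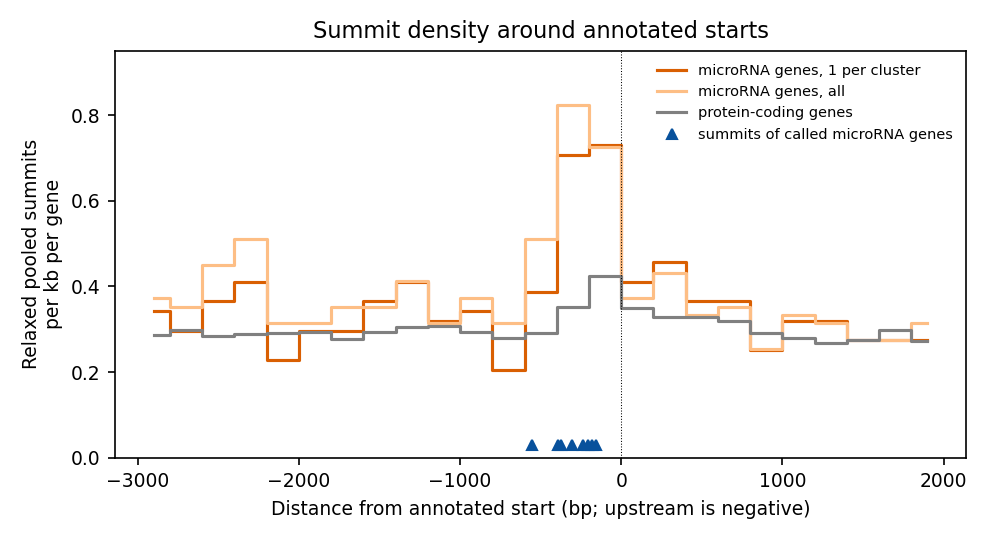
Relaxed pooled summits per kb per gene in bins of 200 bp, by distance from the annotated start (upstream negative), for microRNA genes counted once per cluster, for all 255 microRNA genes and for protein-coding genes. The microRNA lines stand highest in the 400 bp upstream of the start, where 7 of the 8 called summits (triangles) also lie.

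The share of genes with a relaxed summit in the window also differed between the classes, by an amount that depended on how clusters were counted. With 1 gene per cluster, a pooled summit was present at 39 of 69 same-strand intragenic genes (56.5%, exact 95% interval 44.0 to 68.4), at 6 of 22 opposite-strand genes (27.3%, 10.7 to 50.2) and at 46 of 128 genes outside coding genes (35.9%, 27.7 to 44.9). The interval of the first class overlaps those of both others. The pooled share of coding genes, 32.4%, lay below the first interval and inside both others. The intervals cover the counting of genes only. The 39 genes include the 8 called ones, so this share is not separate from the calls. In replicate 1 the shares were 56.5%, 40.9% and 35.9% in that order of classes, and in replicate 2 59.4%, 31.8% and 39.8%, so the order of the other classes differed between replicates. With every gene counted, the pooled shares were 59.5% of 74, 44.8% of 29 and 38.2% of 152, and in replicate 1 the first and second classes were level (55.4% and 55.2%, with 38.2% outside coding genes). Among all 255 genes, the strongest pooled summit also lay in a coding promoter window for 16 of 44 same-strand genes, 1 of 13 opposite-strand genes and 15 of 58 genes outside. How far summits of host genes enter the same-strand class was not tested beyond these counts.

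**Figure D4:**
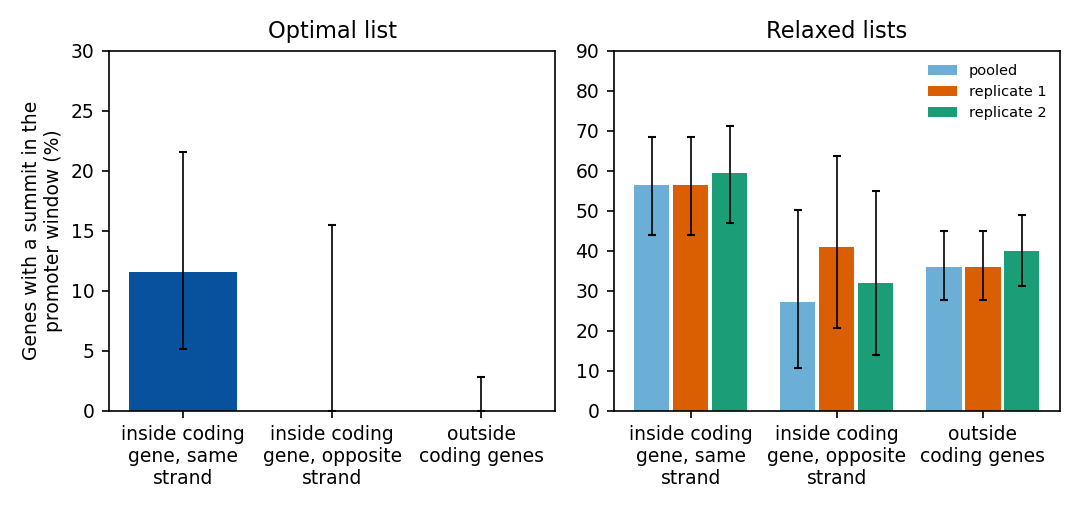
Share of microRNA genes (1 per cluster, 69, 22 and 128 genes from left to right) with a summit in the promoter window, in the optimal list (left) and in the 3 relaxed lists (right). Bars are percentages and lines exact 95% intervals over genes. In the optimal list only the same-strand class has calls, 8 of 69.

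The 89 genes with a relaxed summit in both replicates show how far the replicates ranked them alike. Across these genes Pearson's r of the log2 signal values was 0.57 and Spearman's rho 0.56, and without the 8 called genes r was 0.43 over 81 genes. Clustered genes share summits, so these points are not independent, and the values are a description with no test. The strongest summits of both replicates lay within 100 bp of each other at 44 of the 89 genes, with a median gap of 103 bp.

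**Figure D5:**
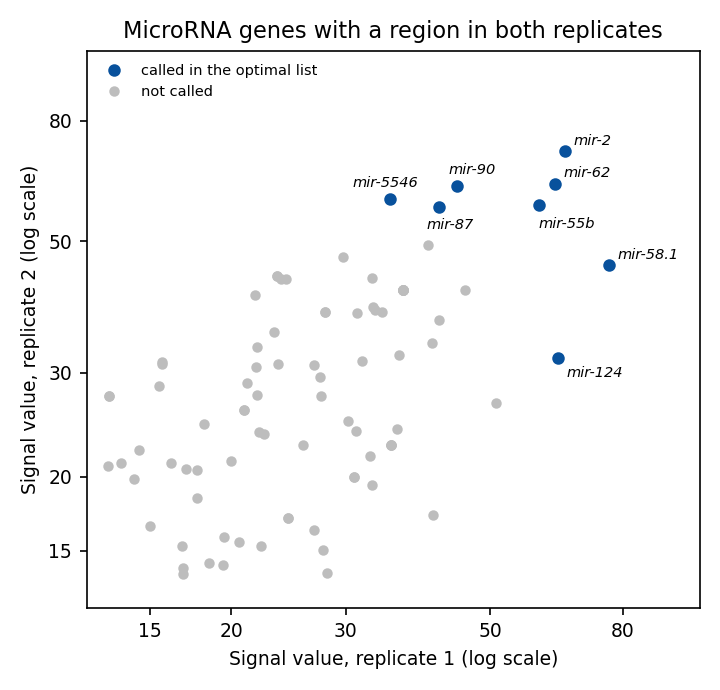
Signal value in replicate 1 against replicate 2 (log scales) for the 89 microRNA genes with a relaxed summit in both. The 8 called genes lie toward the upper right, where mir-124 is high only in replicate 1 and mir-5546 only in replicate 2.

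Apart from lin-4, mir-4929 and mir-50, the 10 uncalled genes with the strongest pooled summit had signal values from 68.9 to 80.2. They were led by mir-8207 (80.2), in the scaffold gene magi-1, and mir-5549 (77.1). mir-71, which extends adult lifespan, shares its host gene ppfr-1 with mir-2 and had 73.5 in the pooled list, 33.0 in replicate 1 and 38.7 in replicate 2, with a summit 368 bp upstream of its hairpin. mir-80, another bantam-like gene, had 72.0 at 90 bp upstream of its hairpin, outside coding genes and outside coding promoter windows. The others were mir-4932, mir-4930, mir-4936, mir-8192 and the neighbours mir-61 and mir-250, which share 1 summit (68.9). The summits at mir-8207, mir-5549, mir-4932, mir-4936, mir-8192, mir-61 and mir-250 also lay in coding promoter windows, and none of the 10 lay that close to a gene for a tRNA, snoRNA or snRNA.

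Optimal summits outside the window came nearest to mir-1824 (418 bp downstream of its start), mir-5550 (826 bp), mir-4921 (934 bp), mir-392 (1005 bp) and mir-4923.1 (1037 bp). All 5 lay downstream of the hairpin, and mir-4921 and mir-4923.1 were near the same summit. A summit less than 1000 bp upstream would have been in the window. The direction was therefore set by the rule at mir-1824, mir-5550 and mir-4921, and nothing is drawn from it. The median distance from a microRNA gene to the nearest optimal summit was 36058 bp, and 37 of the 255 lay within 5000 bp of one.

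The listed families held 53 genes, of which 3 were called (5.66%), a share read beside the 3.14% of all 255 genes with nothing drawn from so few calls. Among the heterochronic genes, which time larval development, none of the 5 let-7 family genes was called. mir-241 and mir-48 had pooled values of 68.2 and 44.7, while let-7 itself, mir-84 and mir-795 had no pooled summit in the window. For let-7 the annotated start is that of a longer primary transcript. Of the lin-4 family, lin-4 is described above and mir-237 had no pooled summit in its window, with the nearest optimal summit 2034 bp downstream of its start.

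The mir-35 family, which embryos need to develop, had no called gene among 8. All 8 had a pooled summit, but mir-35 to mir-41 form 1 cluster and share a single one (63.4 in the pooled list, rank 2701, with 36.7 in replicate 1 and 41.4 in replicate 2). mir-42 shares another with its neighbours mir-43 and mir-44 (52.8, rank 4834). Both replicates therefore had a region at the mir-35 cluster, below the strength of the optimal list. Their strongest summits did not coincide, lying 38 bp upstream of the mir-35 hairpin in replicate 1 and 277 bp upstream in replicate 2.

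Of the 9 genes listed as bantam-like, mir-58.1 was called and 5 had a pooled summit. mir-80 is described above, mir-81 had 62.3, and mir-2209.1 and mir-2209.3 shared a summit of 52.2. mir-58.2, mir-58c, mir-82 and mir-2209.2 had none. The mir-44 family had 0 of 4 called and 4 with a pooled summit, the mir-64 family 0 of 5 and 4, which share 1 weak summit in the host gcn-1 (27.3), the mir-72 family 0 of 3 and 2, and the mir-238 family 0 of 3 and 3.

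Among neuronal microRNAs, mir-124 was called, whereas lsy-6, which sets the left-right difference of a pair of taste neurons, and mir-273 had no pooled summit. The muscle microRNA mir-1 had 57.1 in the pooled list (rank 3759), 21.8 in replicate 1 and 40.5 in replicate 2. Of mir-71, mir-57, mir-228, mir-34, mir-70 and mir-259, 3 had a pooled summit: mir-71, mir-228 (56.8) and mir-57 (35.5). Every gene named in these families other than mir-2, mir-58.1 and mir-124 stayed below the optimal list. No cluster of genes within 2000 bp of each other (20 clusters, 56 genes) contained a call, whereas with gaps of up to 10000 bp (27 clusters, 76 genes) 2 clusters did, through mir-2 and mir-90.

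Calls were spread over the genome, with 2 of 33 genes on chromosome I, 0 of 49 on II, 1 of 27 on III, 2 of 47 on IV, 1 of 28 on V and 2 of 71 on X. The share of genes with a relaxed pooled summit was lowest on IV (34.0%) and highest on III (70.4%). Here every clustered gene is counted, and no share of coding genes by chromosome is set beside these values. Nothing about microRNA genes is drawn from them.

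Sequence at the summits was described with no test. An E-box lay within 50 bp of 3 of the 8 called summits (37.5%), among them CAGCTG at mir-55b and CAGTTG at mir-5546. The share was 33.6% over all optimal summits (306 of 912), 28.4% over the 95 distinct strongest relaxed summits of microRNA genes and 36.4% over all relaxed pooled summits. The called summits were thus near the share of the list they come from. Their GC content ran from 50.5 to 62.4%, where the median was 52.5% over all optimal summits.

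At mir-58.1, mir-87 and mir-90 the printed sequences are rich in pyrimidines. C and T made up 73.3%, 73.3% and 71.3% of the 101 bases on the hairpin strand. These were the highest values among the called genes. The lowest were 46.5% at mir-5546 and 51.5% at mir-62, with the rest in between. Among all optimal summits, 11.6% reached 70% on their richer strand, and the median was 58.4%. Taking the richer strand raises such values, so the hairpin-strand values are not on the same measure. This composition was not a planned measure, and nothing is drawn from it.

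The sequence CTCCGCCC, known from work on worm microRNA promoters as a motif found upstream of such genes, was looked up on both strands after the summit sequences had been seen. It occurred in the promoter windows of 35 of the 255 microRNA genes (13.7%), against 1039 of the 19973 coding genes (5.20%), and in 25 of 219 windows with 1 gene per cluster (11.4%). With 1 gene per cluster, it was present in 16 of 91 with a relaxed pooled summit (17.6%) and in 9 of 128 without (7.03%). The windows of 3 called genes held it, mir-2 and mir-90 among them. At mir-90 it lay within 50 bp of the pooled summit, as it did at 20 of the 912 optimal summits (2.19%). These matches describe the letters in the windows and say nothing of which protein was bound there.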

How the data were processed

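HLH-6-GFP ChIP-seq regions from 2 replicates of 1 group were analysed. Per the texts deposited beside the lists, the authors made a narrowPeak list from each replicate and 1 from the pooled alignments, each with a control, and derived the optimal list from these by IDR, a method that compares ranks between replicates. No source used here names the aligner, the peak caller or the IDR cutoff. The control data were not analysed here. The deposited signal value is a score of unstated scale, and the authors' −log10 q-values were not used for any call. No list gives read counts, so sample depth is unknown and intervals cover only the counting of genes. All 912 optimal regions have the same summit and signal value in the pooled list, so the optimal and pooled values are 1 measurement. The ce11 lists were used, and no column was left without a sample (0).

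Windows were set on Ensembl release 115 genes, and names were taken from RefSeq by WormBase ID (255 of 255 matched). Python 3.11.15, pandas 2.3.3, numpy 2.4.6, scipy 1.17.1 (exact intervals) and matplotlib 3.10.9 were used, and window assignment was tested on simulated data. Genes named were the called ones, those strong in 1 replicate, the 10 next by pooled signal value, the 5 nearest to an optimal summit outside the window, and members of listed families. The members, lists and alternatives were chosen with earlier results of these data known. Other window widths, list lengths and single replicates were tried as alternatives. The summit sequences of 3 called genes are not reported here.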

Additional observations from a re-analysis of the deposited data

How the results depend on the processing

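The count of called genes was 8. It was 7 with windows of 500 bp upstream, 10 with 2000 bp (mir-235 and mir-8190 added), 10 by overlap of 1 bp, 6 without summits in coding promoter windows, 8 without summits near short RNA genes, 9 as distinct summits, and 7 in either replicate alone. With only the upper portion of the optimal list by signal value (456 regions) it fell to 4 (mir-2, mir-62, mir-58.1 and mir-55b), and with the strongest 1824 pooled regions it was 18 (7.06%, against 3.72% of coding genes). All 4 of the first and 13 of the 18 lay in a coding gene on its strand. Chosen after the data were seen, any annotated transcript start gave 8, and leaving out mir-55b gave 7. Genes with a strong region in at least 1 replicate numbered 11, and 7 to 7 with 1 replicate left out, because each list then stands alone. The median signal value of the called genes, 103, was 61.2 on the scale of replicate 1 and 58.2 on that of replicate 2, and these scales differ from that of the pooled list. The count with a relaxed pooled summit, 115, ran from 87 to 145 over windows and lists. No paired analysis was possible because there is a single group. Read depth is unknown, so weak regions cannot be given a detection limit.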
